A study of Fragaria x ananassa with 9 samples.

Results

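In petals of the strawberry Sijihong, a pink-flowered cultivar, the mini zinc finger unigene MIF2 (TRINITY_DN18374_c1_g1) went from near 0 to over 300 TPM while the buds coloured, and a pair of zinc finger homeodomain (ZHD) unigenes, ZHD1 (TRINITY_DN13742_c0_g1) and ZHD5 (TRINITY_DN21174_c1_g6), went the opposite way. These 3 unigenes, of 50285 in the deposited table, were taken by their identifiers because of these courses, so their own values are given as a description with no test. RNA was sequenced from petals at 3 stages with 3 biological replicates each, 9 libraries in all. PF_L was the young bud, with closed sepals and colourless petals. PF_Z was the stage at which the sepals opened slightly and the petals began to colour, and PF_D was the big bud, with open sepals and closed, fully coloured petals. All libraries came from the same cultivar, bred from Pink Princess and Pretty Beauty, with no treatment. A unigene is the longest transcript of a Trinity cluster, and TPM is a transcript level scaled for length and to about the same total in every library. Genes were assembled without a genome, so the unigenes have no chromosome position. Names are those of the best match in the SwissProt protein database, often of another species, and unigenes without such a match have no name.

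ZHD proteins are plant transcription factors that join a zinc finger, through which they form dimers with each other, to a homeodomain that binds DNA. Mini zinc finger proteins keep that zinc finger and lack the homeodomain. In Arabidopsis, MIF1 binds ZHD5 through the zinc finger and keeps it from the nucleus and from DNA. In tomato, the MIF2 relative INHIBITOR OF MERISTEM ACTIVITY joins KNUCKLES, TOPLESS and a histone deacetylase in shutting down WUSCHEL when the floral meristem ends. The comparisons below give the levels of both kinds of gene in the same petals.

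The MIF2 unigene was 1840 bases long, had 6 assembled isoforms and carried the zinc finger dimerization domain by Pfam. It stood at 0.10, 0.08 and 0.10 TPM in PF_L replicates 1, 2 and 3. In PF_Z it reached 18.51, 15.16 and 22.23 TPM. In PF_D it reached 351.46, 365.49 and 300.68 TPM. No library of one stage overlapped with a library of another (without overlap, 8.26% of all tested unigenes were higher in PF_Z and 20.6% in PF_D than in PF_L), and the spread within a stage was small beside each step. The stage means were 0.0933 ± 0.0115, 18.6 ± 3.54 and 339 ± 34.1 TPM (SD, n = 3). Among all unigenes ordered by TPM, MIF2 moved from places 46151 to 47163 in the PF_L libraries to places 8414 to 10863 in PF_Z and 294 to 392 in PF_D. It was therefore among the more abundant transcripts of the fully coloured bud.

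On the log2(TPM + 1) scale, which understates the change of a gene near 0, MIF2 was 4.15 ± 0.17 (SE) higher in PF_Z than in PF_L and 4.13 ± 0.17 higher in PF_D than in PF_Z. From PF_L to PF_D the difference was 8.28 ± 0.17. Both steps were thus of about the same size on this scale. Ordered by log2 fold change, MIF2 was number 13 from the top of 47924 tested unigenes between PF_L and PF_Z, number 68 between PF_Z and PF_D and number 8 between PF_L and PF_D. A smaller or larger constant than 1 added to the TPM moved the first step to 6.58 (0.1 added) or 2.20 (5 added). These comparisons share libraries.

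ZHD1, with 674 bases, 3 isoforms and a homeobox domain by Pfam, ran in the opposite direction. In PF_L it stood at 11.86, 32.51 and 14.69 TPM in replicates 1, 2 and 3. In PF_Z it fell to 0.14, 0.36 and 0.77 TPM, and in PF_D it was listed at 0 in all 3 libraries. The lowest PF_L library was far above the highest PF_Z library, and replicate 2 was the highest of PF_L. The log2 difference between PF_Z and PF_L was -3.76 ± 0.36 (SE), number 9 from the bottom of all tested unigenes. No fold change is given for PF_D, because the table lists the unigene at 0 there.

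ZHD5, with 685 bases, a single isoform and a zinc finger dimerization domain, followed nearly the same course. It stood at 12.22, 28.34 and 20.38 TPM in PF_L, at 0, 0.78 and 0.68 TPM in PF_Z and at 0, 0.06 and 0.33 TPM in PF_D. PF_L was apart from both later stages, whereas PF_Z and PF_D overlapped. The log2 differences were -3.81 ± 0.35 (SE) for PF_Z minus PF_L, number 6 from the bottom, and -4.17 ± 0.35 for PF_D minus PF_L, number 166 from the bottom. The value for PF_D minus PF_Z was -0.36 ± 0.35, which is about its own error. The loss of both ZHD unigenes was therefore in place when colouring began, at a time when MIF2 had reached only a small part of its final level.

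**Figure D1:**
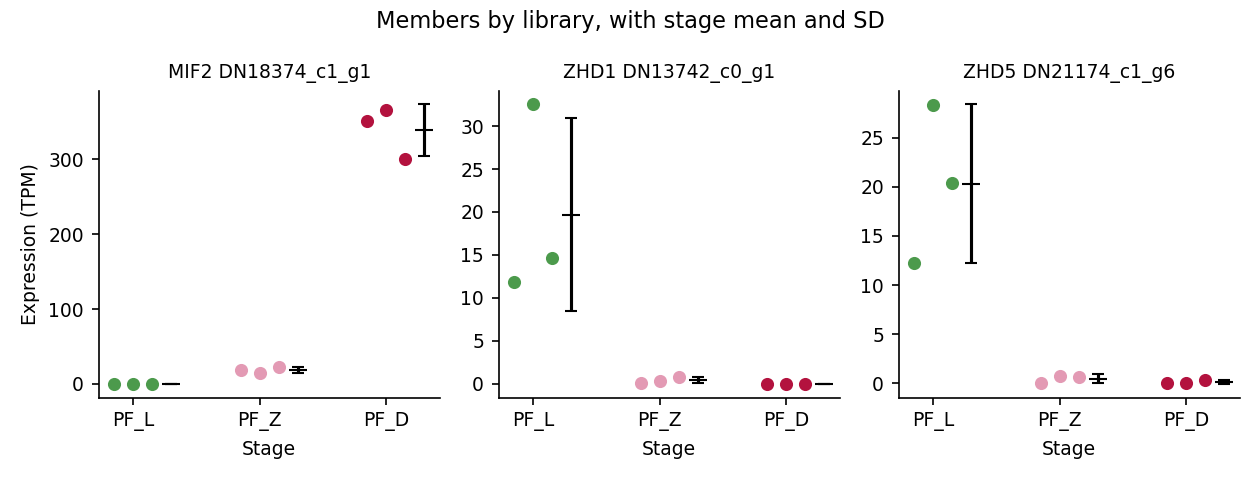
Expression in TPM (linear axis, a separate scale in each panel) of MIF2, ZHD1 and ZHD5 in each of the 3 libraries of PF_L, PF_Z and PF_D, with the stage mean and SD beside the points. MIF2 lies between 300.68 and 365.49 TPM in PF_D and at 0.10 TPM or less in PF_L, while ZHD1 and ZHD5 are above 11 TPM in PF_L only.

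Other unigenes were called by a log2 difference of at least 1 and an adjusted p under 0.05. The members were chosen by these contrasts, and no call is given for them. Of all tested unigenes, 6.84% were called in either direction between PF_Z and PF_L, 25.1% between PF_D and PF_L and 18.0% between PF_D and PF_Z. Called higher were 2.15%, 9.38% and 8.89% in these comparisons. ZHD1 and ZHD5 passed the filter on low values, 1 TPM or more in at least 3 libraries, through the PF_L libraries alone.

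ZHD1 and ZHD5 may not be separate genes. Both had the same best match in the Nr database, zinc-finger homeodomain protein 6 of Fragaria vesca, while their best SwissProt matches were ZHD1 of rice and ZHD5 of Arabidopsis. The table lists a homeobox for the first and a zinc finger domain for the second. Their log2 values, each centred on its own mean over the 9 libraries, differed by a root mean square of 0.239, no smaller than the 0.217 between ZHD5 and the unrelated cyclin CYCD1-1 described further on. Whether they are pieces of a single transcript or close copies cannot be told apart from this table, and they are best counted as 1 or 2 genes.

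Short fragments of the same Trinity clusters gave further readings near the members. Of the 5 other unigenes of the MIF2 cluster, none of them annotated, 4 were listed at 0 in all PF_L libraries. The 234-base fragment TRINITY_DN18374_c1_g6 stood at 3.76, 4.86 and 12.91 TPM in PF_Z and at 35.45, 15.98 and 23.54 TPM in PF_D. The other 3 stood at 0.39 to 1.37 TPM in PF_Z and 1.22 to 12.08 TPM in PF_D. The fifth, c1_g5, stood at 0.30 to 2.83 TPM with no call. In the ZHD5 cluster, the unannotated 290-base fragment TRINITY_DN21174_c1_g3 stood at 10.06, 17.22 and 14.30 TPM in PF_L and at 0, 0 and 1.03 TPM in PF_Z. It was listed at 0 in PF_D. Of the other 5 unigenes of that cluster, limma called only OBGL (TRINITY_DN21174_c1_g2), named after a GTP-binding protein, which was lower in PF_D than in PF_L (log2 difference -1.64 ± 0.18, adjusted p = 9.3e-05). Such fragments may belong to the same transcripts as the members, so they are not independent readings of them.

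By name or description, 14 unigenes belonged to this family, 2 of them mini zinc fingers and 12 ZHD, and all 14 passed the filter. For 4 of them (ZHD1, ZHD5 and a pair of the DN21624 group) it was passed only through PF_L, where they had to be high. TRINITY_DN13742_c0_g2 reached 1 TPM outside PF_L in PF_Z replicate 2 only, so it also needed the PF_L libraries to pass. The 11 unigenes other than the members were chosen by annotation, and they were tested with limma on all 9 libraries with Benjamini-Hochberg adjustment over all 47924 tested unigenes.

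MIF1 (TRINITY_DN6934_c0_g1), the other mini zinc finger unigene, was low throughout. It stood at 1.10, 1.07 and 0.50 TPM in PF_L, at 1.78, 2.87 and 3.11 TPM in PF_Z and at 2.31, 3.61 and 4.37 TPM in PF_D. All PF_Z and PF_D libraries were above all PF_L libraries, while PF_Z and PF_D overlapped. It rose from PF_L to PF_D by 1.22 ± 0.29 on the log2 scale (SE; limma, adjusted p = 0.0093). The difference of 0.92 ± 0.29 between PF_Z and PF_L was not called (adjusted p = 0.079), although it was called after scaling by median ratios (adjusted p = 0.045) or quantile normalization (adjusted p = 0.031). Its highest library reached 4.37 TPM, against 300.68 TPM in the lowest PF_D library of MIF2.

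Most ZHD unigenes beyond the members were lower in PF_Z and PF_D than in PF_L. Of the 8 that reached 1 TPM in some library outside PF_L, 6 fell between PF_L and PF_Z and none rose. That is 75.0% lower, against 4.70% of all tested unigenes called lower and 2.15% called higher. Among the 6 was TRINITY_DN13742_c0_g2, at 1.07 TPM in PF_Z replicate 2 and under 1 TPM in every other library outside PF_L. It could not have passed the filter without being high in PF_L, so its fall was bound to the filter. In PF_D, 6 of the 8 were lower than in PF_L (15.7% of all tested unigenes were called lower), a comparison that shares the PF_L libraries. Their median log2 difference was -1.82 in PF_Z and -2.56 in PF_D against PF_L, beside -0.21 and -0.12 over all tested unigenes. The pair that passed only through PF_L was also called lower, which makes 8 of 10, but it could not have passed without being high there. Some of the 8 share a Trinity cluster, TRINITY_DN16683_c0_g1 with c0_g2 and TRINITY_DN21624_c1_g2 with that pair. TRINITY_DN13742_c0_g2 shares the cluster of the ZHD1 member. They may not be independent readings, so the counts are of unigenes and not of separate genes. Of the 11 unigenes beyond the members, 8 were lower in PF_Z than in PF_L without overlap of libraries and MIF1 was higher (23.2% and 8.26% of all tested unigenes). Between PF_L and PF_D, 10 were lower without overlap and MIF1 was higher (29.5% and 20.6% of all). Between PF_Z and PF_D, 5 were lower without overlap (18.2% of all). The scaling matters for this background: of all unigenes called between PF_Z and PF_L, 31.4% were higher, and 49.7% or 50.5% with median ratio scaling or quantile normalization, whereas 8 ZHD unigenes were called lower under each.

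The count of 8 called lower between PF_L and PF_Z changed when single libraries were left out. It became 4, 5 and 5 without PF_L replicate 1, 2 and 3. In each of these, TRINITY_DN21624_c1_g1 and TRINITY_DN21624_c0_g1 no longer reached 1 TPM in 3 libraries and left the test. ZHD4 (TRINITY_DN22040_c0_g3), with a log2 difference of -1.68, gave -1.69, -1.67 and -1.69 there (limma, adjusted p = 0.055, 0.055 and 0.058). The same unigene lost its call without PF_Z replicate 1 or 2, with -1.42 and -1.48 (limma, adjusted p = 0.051 and 0.055). ZHD4 (TRINITY_DN16683_c0_g1) gave -1.78 without PF_L replicate 1, in place of -1.85 (limma, adjusted p = 0.052).

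Besides the ZHD1 member, 5 unigenes bore the symbol ZHD1, which the SwissProt matches give to proteins of more than one species. TRINITY_DN21624_c1_g1 stood at 7.00, 12.56 and 8.38 TPM in PF_L, at 0.33, 0.83 and 0.28 TPM in PF_Z and at 0 in PF_D. TRINITY_DN21624_c0_g1 stood at 4.45, 11.41 and 6.91 TPM, then at 0.60, 0.77 and 0.70 TPM, and was also listed at 0 in PF_D. TRINITY_DN13742_c0_g2, of the same Trinity cluster as the ZHD1 member, stood at 3.72, 7.92 and 4.92 TPM, then at 0.56, 1.07 and 0.91 TPM, and at 0.04, 0 and 0.13 TPM in PF_D. All 3 were mostly gone when colouring began, and the first and second are those that passed the filter through PF_L alone. TRINITY_DN13742_c0_g2 could not have passed it without the PF_L libraries either.

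TRINITY_DN18972_c0_g1 stood at 9.52, 14.99 and 11.56 TPM in PF_L, at 1.41, 1.16 and 2.61 TPM in PF_Z and at 0.64, 1.25 and 1.12 TPM in PF_D. TRINITY_DN21624_c1_g2 stood at 13.11, 19.49 and 16.11 TPM, then at 1.43, 2.40 and 3.61 TPM, and at 1.69, 2.33 and 1.78 TPM. For both, PF_Z and PF_D overlapped, and their log2 differences between PF_Z and PF_L were -2.27 ± 0.28 and -2.34 ± 0.27 (SE; limma, adjusted p = 0.0013 and 0.0009). ZHD8 (TRINITY_DN16683_c0_g2), whose best Fragaria vesca match was ZHD 11-like, had the same shape, with 11.02, 17.57 and 12.58 TPM in PF_L, 1.10, 1.78 and 4.54 TPM in PF_Z and 1.59, 3.72 and 1.47 TPM in PF_D. Its log2 difference was -2.18 ± 0.39 between PF_Z and PF_L (adjusted p = 0.0085) and -0.03 ± 0.39 between PF_D and PF_Z (adjusted p = 0.96). These 3 unigenes thus kept a low level, mostly over 1 TPM, in the fully coloured bud, where ZHD1 was listed at 0.

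Both ZHD4 unigenes fell again between PF_Z and PF_D. TRINITY_DN16683_c0_g1 stood at 101.39, 84.25 and 88.26 TPM in PF_L, at 17.56, 16.32 and 50.47 TPM in PF_Z and at 8.48, 6.07 and 9.19 TPM in PF_D. TRINITY_DN22040_c0_g3 stood at 25.59, 26.04 and 25.64 TPM, then at 4.80, 5.26 and 14.96 TPM, and at 0.73, 0.99 and 0.63 TPM. No stages overlapped for either of them, and in both PF_Z replicate 3 lay nearest to PF_L. Both fell from PF_Z to PF_D, with log2 differences of -1.53 ± 0.36 and -2.23 ± 0.34 (SE; limma, adjusted p = 0.011 and 0.0012). They were the only 2 of the 11 other family unigenes called in that comparison, where 9.07% of all tested unigenes were called lower. The 3 ZHD1 unigenes at or near 0 in PF_D were also lower there than in PF_Z without overlap, from levels of about 1 TPM or less, and with 0.1 in place of 1 added to the TPM 5 unigenes were called. Without PF_Z replicate 3, these differences were -1.03 and -1.76 (adjusted p = 0.0037 and 0.00033), and those of PF_Z minus PF_L were -2.36 and -2.15, in place of -1.85 and -1.68.

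The ZHD9 pair was called in no comparison and stayed abundant in all stages. TRINITY_DN20815_c0_g3 stood at 113.25, 108.95 and 92.33 TPM in PF_L, at 84.08, 62.26 and 111.81 TPM in PF_Z and at 59.55, 86.00 and 62.22 TPM in PF_D. Its partner TRINITY_DN20815_c0_g1, which matched Fragaria vesca ZHD9 by Nr only, differed from it by a root mean square of 0.091 on the centred log2 scale and is probably not an independent reading. All PF_D libraries were below all PF_L libraries in both, but the log2 differences of -0.61 ± 0.22 and -0.46 ± 0.23 (SE) were not called (limma, adjusted p = 0.057 and 0.14). The ratio of ZHD4 (TRINITY_DN16683_c0_g1) to ZHD9 (TRINITY_DN20815_c0_g3) within a library, which no scaling of libraries can change, was 0.773 to 0.956 in PF_L, 0.209 to 0.451 in PF_Z and 0.0706 to 0.148 in PF_D. The stages did not overlap. This ratio was chosen after its values were seen and is given with no test.

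**Figure D2:**
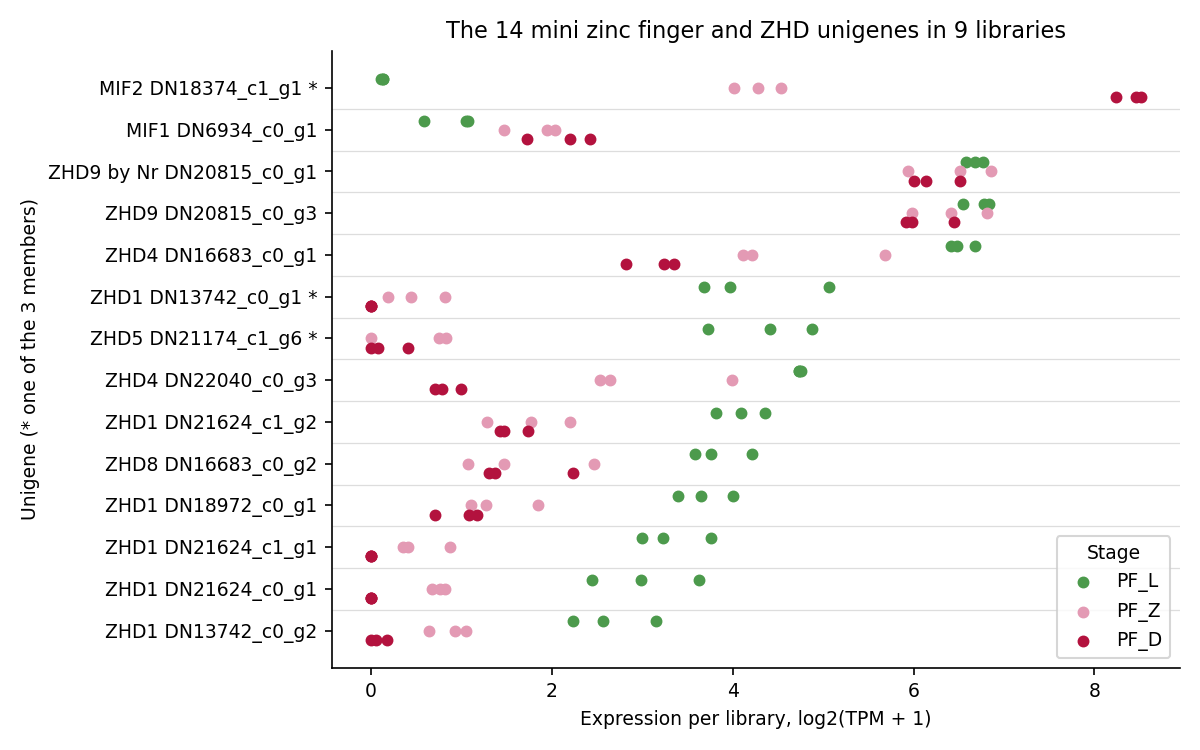
Expression as log2(TPM + 1) on the horizontal axis for the 14 mini zinc finger and ZHD unigenes, with 3 points per stage for the 3 libraries. MIF2 is the only unigene with PF_D far to the right of PF_L, the DN20815 pair keeps all stages close together, and the remaining ZHD unigenes have PF_L to the right of PF_Z and PF_D.

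**Figure D3:**
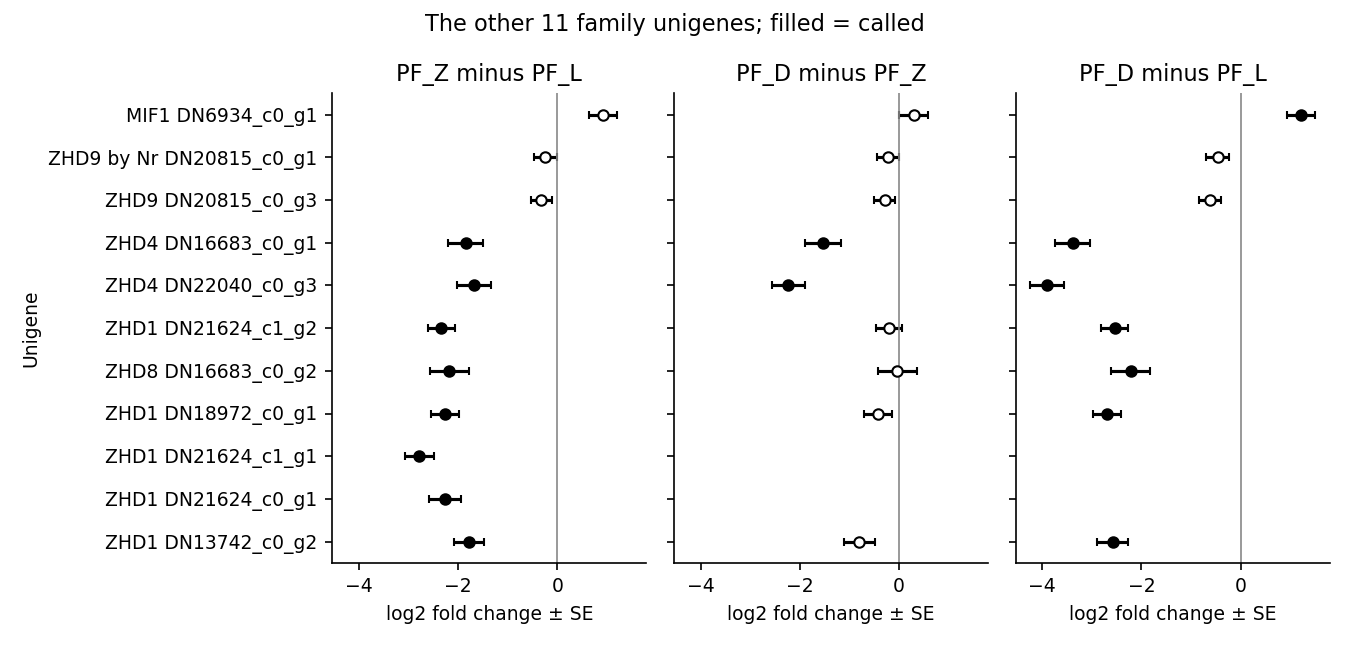
Log2 fold change with its standard error for the 11 family unigenes other than the members in the 3 comparisons, with filled points for called unigenes and no point where a stage was listed at 0. In PF_Z minus PF_L 8 ZHD unigenes are filled and below 0, and in PF_D minus PF_Z only the 2 ZHD4 unigenes are.

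PF_L replicate 2 was the highest PF_L library for much of the family. Of the 12 ZHD unigenes, 9 were highest in PF_L replicate 2 among the PF_L libraries, against 31.7% of all tested unigenes. The summed TPM of 106 genes of dividing cells (core histones and A-, B- and D-type cyclins) was also highest there, at 7466 TPM against 5983 and 6361 TPM in replicates 1 and 3. The part of dividing cells in the result was not tested.

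Summed over the 12 ZHD unigenes, the transcript level fell by less than that of the members. The sum was 421, 465.3 and 396.5 TPM in PF_L, 202.1, 153.2 and 306.1 TPM in PF_Z and 142, 190.5 and 140.1 TPM in PF_D. PF_L was above both later stages, which overlapped. The ZHD9 pair made up 45.2% to 52.5% of the sum in PF_L, 74.0% to 86.2% in PF_Z and 89.5% to 92.4% in PF_D, so the ZHD transcripts of the coloured bud were mostly of that pair. The pair may be counted doubly here. Over the ZHD unigenes with a SwissProt description, which leaves out TRINITY_DN20815_c0_g1, the mean sum was 326.3, 132.1 and 83.3 TPM, and TRINITY_DN20815_c0_g3 alone held 29.9% to 36.2%, 58.4% to 75.1% and 80.9% to 85.6% of it. ZHD1 and ZHD5 together held 5.72% to 13.1% of the sum in PF_L and at most 0.236% in PF_D.

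Beside this sum, MIF2 was a trace in the young bud and the larger part in the big bud. Its ratio to the ZHD sum was 0.000172 to 0.000252 in PF_L, 0.0726 to 0.0990 in PF_Z and 1.92 to 2.47 in PF_D. With the ZHD9 pair left out of the sum, the ratio was 0.000314 to 0.0005, then 0.280 to 0.663, and 20.5 to 26.7 in PF_D. Against the sum with SwissProt descriptions alone it was 0.00022 to 0.000331, then 0.116 to 0.165, and 3.64 to 4.83. MIF2 was above the ZHD sum in all 3 PF_D libraries and below it in the other 6. These are ratios of transcript levels per length, and nothing was measured of the proteins.

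**Figure D4:**
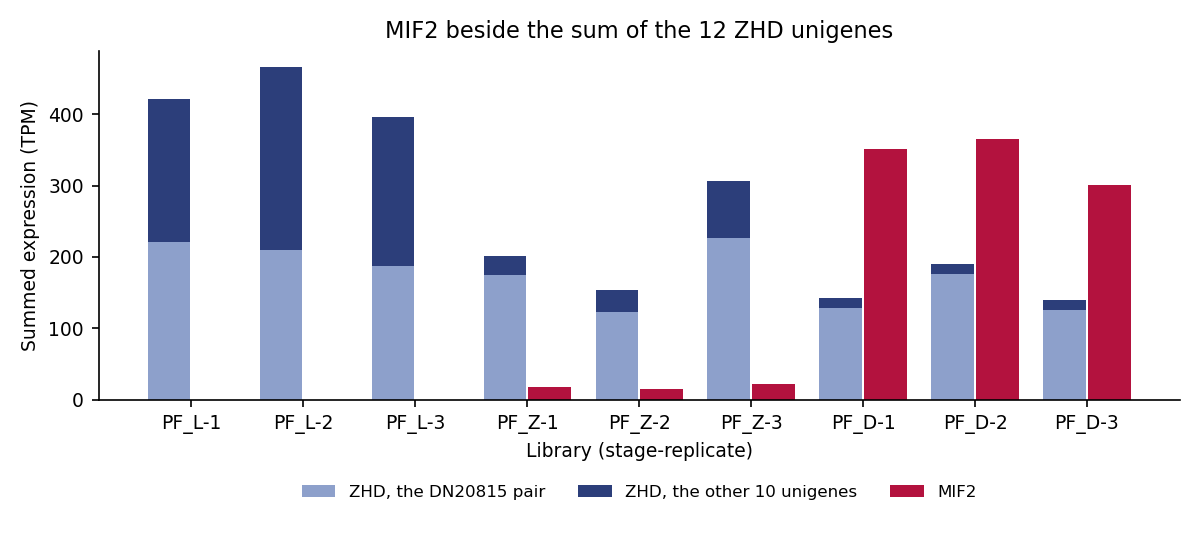
Summed TPM of the 12 ZHD unigenes (stacked bars, the DN20815 pair and the other 10) beside the TPM of MIF2 in each of the 9 libraries, on a linear axis from 0. The ZHD sum falls from 396.5 to 465.3 TPM in PF_L to 140.1 to 190.5 TPM in PF_D, while MIF2 rises above it only in PF_D.

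Homeobox genes outside the family gave a wider setting. Of 83 tested, 8 fell and 2 rose between PF_L and PF_Z (9.64% and 2.41%, against 4.70% and 2.15% of all tested unigenes). Between PF_L and PF_D, 26 fell and 7 rose (31.3% and 8.43%, against 15.7% and 9.38%). Between PF_Z and PF_D, 17 fell and 5 rose (20.5% and 6.02%, against 9.07% and 8.89%). Of the ZHD unigenes beyond the members, without the pair that passed through PF_L alone, 75.0% were called lower in PF_Z than in PF_L. That share still holds TRINITY_DN13742_c0_g2, which could not have passed the filter without PF_L, and unigenes that share a Trinity cluster. The difference between these shares was not tested.

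The genes known to work with MIF2 or ZHD proteins in other species were mostly not called. Of 15 tested unigenes of the meristem list (KNU, TOPLESS and its relatives, HDA19, AGAMOUS relatives and CLV1), limma called none in PF_Z or PF_D against PF_L, where 6.84% and 25.1% of all tested unigenes were called. A single one, CLV1 (TRINITY_DN27690_c0_g1), was lower in PF_D than in PF_Z (6.67% of the list, against 9.07% of all). This receptor kinase, which limits stem cell number in the Arabidopsis meristem, stood at 5.16, 7.42 and 1.83 TPM in PF_Z and at 0.62, 0.46 and 0.73 TPM in PF_D (log2 difference -1.72 ± 0.51, SE; adjusted p = 0.031). The other CLV1 unigenes were more abundant and went the other way without a call. TRINITY_DN27690_c0_g2 stood at 8.79 to 15.46 TPM in PF_Z and 18.51 to 21.44 TPM in PF_D (0.68 ± 0.21, limma, adjusted p = 0.039). TRINITY_DN14190_c0_g1 differed by 0.42 ± 0.22 (limma, adjusted p = 0.18). At an unadjusted p under 0.05 the list gave 2, 6 and 5 unigenes in PF_Z minus PF_L, PF_D minus PF_L and PF_D minus PF_Z. No share of all tested unigenes at that limit is given, so these counts have no background to be read against. The call of TRINITY_DN27690_c0_g1 was lost on leaving out PF_Z replicate 1 or 2 or any PF_D library (log2 difference -1.78 to -1.38, limma adjusted p = 0.066 to 0.11), and with 5 added to the TPM its difference was -0.76, under the limit of 1. No unigene bore the names WUS, CLV3, CRC, SUP or TPR3.

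KNU (TRINITY_DN16311_c0_g2), named after the zinc finger repressor KNUCKLES, stood at 1.02 to 2.40 TPM over the 9 libraries. The most abundant TOPLESS unigene (TRINITY_DN26711_c0_g3), a corepressor, stood at 200.11 to 399.03 TPM, and AG (TRINITY_DN15050_c0_g1) at 1.49 to 6.60 TPM. HDA19 (TRINITY_DN21210_c0_g2), a histone deacetylase, stood at 120.28, 123.49 and 121.13 TPM in PF_L, at 71.51, 86.41 and 87.74 TPM in PF_Z and at 68.22, 80.88 and 69.63 TPM in PF_D. Its PF_L libraries were above all others, but its log2 difference of -0.73 ± 0.13 (SE; adjusted p = 0.0019) between PF_D and PF_L was under the limit of 1. Among the other names of the list, the TPR1 unigene stood at 74.26 to 145.67 TPM, the highest TPR2 unigene at 34.40 to 63.03 TPM and the highest TPR4 unigene at 27.75 to 44.90 TPM. From PF_L to PF_D, TPR1 differed by 0.59 (limma, adjusted p = 0.015) and TPR4 (TRINITY_DN21173_c0_g2) by -0.70 (adjusted p = 0.0095). TPR2 unigenes TRINITY_DN27068_c0_g2 and TRINITY_DN26711_c0_g1 differed by -0.67 and -0.48 (adjusted p = 0.033 and 0.047). All were under the limit of 1.

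In Arabidopsis, ZHD11 acts with NAC factors on the drought gene ERD1, which encodes a Clp protease subunit. Here none of the 3 unigenes of that list (CLPD and a pair named NAC072) was called in any comparison. In each, 2 had an unadjusted p under 0.05, again with no share of all tested unigenes to read it against. NAC072 (TRINITY_DN24569_c0_g1) stood at 131.16, 82.71 and 106.89 TPM in PF_L, at 479.65, 387.28 and 138.16 TPM in PF_Z and at 314.12, 167.61 and 263.65 TPM in PF_D. PF_Z and PF_D were above all PF_L libraries, and the log2 differences of 1.48 ± 0.42 and 1.19 ± 0.42 (SE) just missed the threshold (limma, adjusted p = 0.054 and 0.051). Without PF_Z replicate 3 both passed (adjusted p = 0.0034 and 0.0058). The other NAC072 unigene (TRINITY_DN22675_c0_g1) stood at 18.37 to 25.15 TPM in PF_L, 10.23 to 18.25 TPM in PF_Z and 23.55 to 26.10 TPM in PF_D. CLPD (TRINITY_DN18804_c0_g2) stood at 2.01 to 2.17, 1.72 to 1.98 and 2.53 to 5.42 TPM. From PF_Z to PF_D their log2 differences were 0.83 ± 0.21 and 0.82 ± 0.26 (SE; limma, adjusted p = 0.014 and 0.044), under the limit of 1.

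The genes whose courses were most like that of MIF2 were looked for among 10988 named unigenes outside the family with at least 10 TPM in a stage, by the root mean square difference of centred log2(TPM + 1) over the 9 libraries. The closest was a GDSL esterase or lipase, At1g20120 (TRINITY_DN27366_c0_g1, 0.428), at 0.34, 0 and 0 TPM in PF_L, 48.59, 21.81 and 33.49 TPM in PF_Z and 355.07, 514.19 and 374.29 TPM in PF_D. Next was GT1 (TRINITY_DN20511_c0_g4, 0.664), named after the strawberry anthocyanidin 3-O-glucosyltransferase that attaches glucose to anthocyanidins, at 2.63, 1.37 and 1.83 TPM, then 60.90, 35.87 and 74.19 TPM, and 327.74, 513.17 and 315.37 TPM. They were followed by CA2 (0.679), a beta-carotene hydroxylase of carotenoid synthesis, DTX55 (0.771), a transporter of the DETOXIFICATION family, and INVA (0.862), an acid invertase, which splits sucrose. INVA stood at 5.42, 4.50 and 7.39 TPM in PF_Z and at 462.15, 449.71 and 351.98 TPM in PF_D. In PF_Z it had thus reached a smaller part of its PF_D level than MIF2 had.

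For ZHD1 and ZHD5 the closest was the same gene, CYCD1-1 (TRINITY_DN12336_c0_g1), a D-type cyclin of the cell cycle, with 0.290 and 0.217. It stood at 15.13, 23.39 and 21.56 TPM in PF_L, at 0.10, 0.92 and 0.99 TPM in PF_Z and at 0 in PF_D. WOX1 (TRINITY_DN25638_c0_g1), a homeobox gene of blade outgrowth in Arabidopsis, was at 0.349 from ZHD1 and 0.282 from ZHD5, with 12.59, 18.43 and 12.44 TPM in PF_L and at most 0.84 TPM later. Both lists also held the histone H3.2 unigene HTR2 (TRINITY_DN17606_c0_g4, 0.339 and 0.298) and the pectinesterase PME68 (TRINITY_DN15760_c0_g1, 0.383 and 0.282). The fifth was the transcription factor BHLH96 (0.367) for ZHD1 and another HTR2 unigene (0.329) for ZHD5. The points share libraries and stages, and with Pearson's r in place of this measure the 5 closest genes had 0 in common for MIF2 and 2 each for ZHD1 and ZHD5, CYCD1-1 among them.

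**Figure D5:**
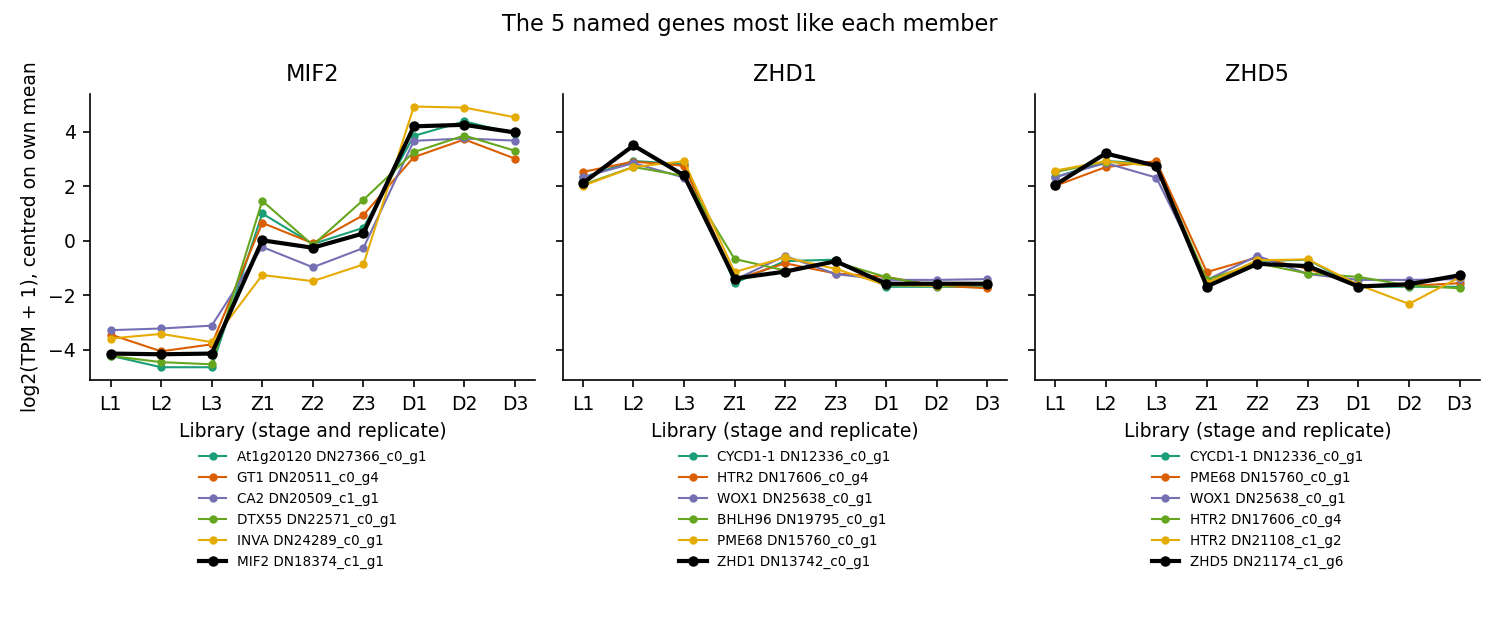
Log2(TPM + 1), centred on each gene's own mean, over the 9 libraries (L, Z and D with the replicate number) for MIF2, ZHD1 and ZHD5 in black and the 5 named genes most like each in colour. The genes near MIF2 rise at both steps, and those near ZHD1 and ZHD5 drop between PF_L and PF_Z and stay low.

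The marker lists gave the make-up of the samples. Petal identity genes were 10 unigenes whose best matches are described as relatives of APETALA3, PISTILLATA and GLOBOSA. They summed to 2916 to 3104 TPM in PF_L, 2669 to 3329 TPM in PF_Z and 2834 to 3501 TPM in PF_D, and none was at 0 in any whole stage. Of them, 5 were called higher and none lower between PF_L and PF_D (5 of 10, against 9.38% of all tested unigenes called higher), and none was called between PF_L and PF_Z. Among the 5 were TRINITY_DN24830_c0_g1, c0_g2 and c0_g3 of the same Trinity cluster, which are not independent readings. All 3 were listed only by an Nr match to FBP1. The best SwissProt match of c0_g1 was another protein, the Agamous-like MADS-box protein AGL65. Whether these 3 are petal identity genes was not tested. FBP1 (TRINITY_DN23056_c0_g1) and TRINITY_DN23056_c0_g2 were lower in PF_D by less than the limit of 1 (-0.90 and -0.59, limma, adjusted p = 0.00072 and 0.022). The 106 genes of dividing cells summed to 5983 to 7466, 2304 to 3218 and 2702 to 3030 TPM. Of them, 48 fell and 1 rose between PF_L and PF_Z (45.3% lower, against 4.70% of all), and 56 fell and 7 rose between PF_L and PF_D (52.8% lower, against 15.7%). In PF_D, 7 of them were listed at 0 in all 3 libraries. This list moved with ZHD1 and ZHD5, and its part in the result was not tested.

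The 34 genes of green tissue (chlorophyll a-b binding proteins and the small subunit of RuBisCO) summed to 6961 to 10620 TPM in PF_L, 2410 to 9985 TPM in PF_Z and 568.6 to 2138 TPM in PF_D. Of them, 3 fell between PF_L and PF_Z (8.82%, against 4.70% of all) and 29 between PF_L and PF_D (85.3%, against 15.7%). PF_Z replicate 3, which was nearest to PF_L for the ZHD4 unigenes and highest of PF_Z for MIF2, had the lowest sum of PF_Z, and the part of green tissue was not tested. Genes of anther and pollen (23) summed to 3370 to 3597, 4247 to 5177 and 3450 to 4523 TPM. Of these, 1 rose and none fell between PF_L and PF_Z, and 4 rose and 7 fell between PF_L and PF_D (17.4% and 30.4%, against 9.38% and 15.7% of all). Most of the sum lay in TRINITY_DN22789_c2_g1 (1263.43 to 2630.45 TPM) and the 252-base TRINITY_DN23584_c0_g3 (600.50 to 2173.79 TPM), both listed by the words pollen-specific. The best SwissProt match of the former was DOWNSTREAM OF FLC. The anther regulators AMS and DYT1 stood at 0.15 to 4.84 and 0.25 to 2.92 TPM, and LAT52 at 0.44 to 63.78 TPM. In whole petals, fewer cells of a type and less RNA per cell cannot be told apart.

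Epidermis genes (14) summed to 1143 to 1212, 785.7 to 1090 and 1183 to 1349 TPM, and the 9 of the carpel list, of which a pair matched the potato protein STOREKEEPER and are no carpel genes, to 120.1 to 152.4, 99.1 to 125.8 and 74.4 to 85.3 TPM. Of the epidermis genes, 2 rose and 2 fell between PF_L and PF_Z (14.3% each, against 2.15% and 4.70% of all tested unigenes). Between PF_L and PF_D, 5 rose and 2 fell (35.7% and 14.3%, against 9.38% and 15.7% of all). Of the 8 tested unigenes of the carpel list, 1 fell in PF_Z and 2 fell in PF_D against PF_L (12.5% and 25.0%, against 4.70% and 15.7% of all). The 8 still include the STOREKEEPER pair, which was not called. The sums hide single genes that moved far, of which 3 were picked after their values were seen. PDF1 (TRINITY_DN13966_c0_g1), a protein of the young epidermis, stood at 472.08, 540.13 and 503.51 TPM in PF_L, at 35.75, 76.61 and 72.64 TPM in PF_Z and at 1.98, 0.99 and 0.63 TPM in PF_D. It fell in the same step as ZHD1 and ZHD5 and again in the next. WIN1 (TRINITY_DN16455_c0_g2), named after a regulator of wax and cutin synthesis in Arabidopsis, stood at 3.67, 2.53 and 3.44 TPM in PF_L, at 66.11, 48.10 and 84.11 TPM in PF_Z and at 69.81, 73.46 and 98.18 TPM in PF_D. SPT (TRINITY_DN14793_c0_g1), of the carpel list, stood at 29.52, 43.15 and 41.87 TPM, then at 23.76, 30.70 and 22.77 TPM, and at 0.18, 0.67 and 1.07 TPM in PF_D. Their log2 differences between PF_D and PF_L were -7.89, 4.27 and -4.60 (limma, adjusted p = 1.6e-07, 8.8e-07 and 9.5e-07). The other WIN1 unigene of the list, TRINITY_DN14352_c1_g4, went the opposite way. It stood at 2.50, 9.80 and 5.52 TPM in PF_L, at 0.68, 0.55 and 1.09 TPM in PF_Z and at 0.17, 0.06 and 0.19 TPM in PF_D. It was called lower in PF_Z and in PF_D than in PF_L (-1.83 and -2.46, limma, adjusted p = 0.019 and 0.00089). The part of the epidermis and the carpel in the members' courses was not tested.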

How the data were processed

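Petal RNA of 3 stages, with 3 biological replicates each per the study, was read on an Illumina sequencer. The authors trimmed reads with Cutadapt, built unigenes with Trinity and annotated them with DIAMOND. The deposited values are TPM; the program that made them is not given in the sources used here. The submitters' processing notes list Bowtie 0.12.2, HISAT2 2.0 and StringTie 1.3.0 without a role. The study lists the reads of each library, and PF_L replicate 1 had the fewest. TPM keeps no counts per unigene, so the counting error of low values is unknown.

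Of 50285 unigenes, 47924 reached 1 TPM in 3 or more libraries. Their log2(TPM + 1) values were fitted by limma (version 3.58.1, R version 4.3.3) with a mean per stage over all 9 libraries, a variance trend and Benjamini-Hochberg adjustment. A call needed a log2 difference of at least 1 with adjusted p below 0.05, as in the study. The fit was tested on simulated data. Named are the members, all family unigenes, unigenes of their Trinity clusters, listed partners called or highest for their name, and the 5 most alike genes per member. The members and lists were chosen with earlier results of these data known. The ZHD4 to ZHD9 ratio, PDF1, WIN1 and SPT were chosen after their values were seen. Plots come from matplotlib (3.10.9, Python 3.11.15).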

Additional observations from a re-analysis of the deposited data

How the results depend on the processing

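The constant added to the TPM set the size of the members' differences and not their direction. With 0.1 in place of 1, MIF2 gave 6.58 (PF_Z minus PF_L) and 10.77 (PF_D minus PF_L), ZHD1 gave -5.29 (PF_Z minus PF_L) and ZHD5 gave -5.56, -6.66 and -1.11 (PF_Z minus PF_L, PF_D minus PF_L and PF_D minus PF_Z). With 5, MIF2 gave 2.20, 6.07 and 3.87, ZHD1 -2.10 (PF_Z minus PF_L), and ZHD5 -2.16 and -2.25 against PF_L. Leaving out 1 library at a time, where the member stayed in the test, MIF2 ranged from 4.02 to 4.28, 8.22 to 8.36 and 3.99 to 4.26, ZHD1 from -3.92 to -3.61, and ZHD5 from -3.96 to -3.55, -4.30 to -4.09 and -0.63 to -0.21. ZHD1 and ZHD5 left the test with any PF_L library out, as 3 libraries at 1 TPM were required.

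Of the 11 other family unigenes, the number called lower between PF_L and PF_Z was 4 to 8 on leaving out 1 library, for the 4 and 5 from fewer libraries and fewer unigenes tested. The number called higher there was 1 (MIF1) with median ratio scaling and 1 with quantile normalization, which moved the median of all unigenes from -0.21 to -0.03 and -0.02. In PF_D minus PF_L it was 0 with 5 added and 0 with a filter of 5 TPM. The number called lower in PF_D minus PF_Z was 5 with 0.1 added and 1 at an adjusted p limit of 0.01. Of the unigenes called over the whole table in PF_D minus PF_L, 37.3% were higher, and 47.3% after quantile normalization.

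Values near 0 that were not called changed sign. ZHD8 in PF_D minus PF_Z gave 0.37, 0.10 and 0.13 without PF_Z replicate 3, PF_D replicate 1 and PF_D replicate 3 (range -0.33 to 0.37). TRINITY_DN21624_c1_g2 gave 0.02 there without PF_Z replicate 3 (-0.44 to 0.02), NAC072 (TRINITY_DN24569_c0_g1) 0.05 without PF_Z replicate 1 (-0.84 to 0.05), and TRINITY_DN20815_c0_g1 0.01 in PF_Z minus PF_L without PF_Z replicate 2 (-0.45 to 0.01). The cause was not tested. With SwissProt descriptions alone, the ZHD sum was 326.3, 132.1 and 83.3 TPM in place of 427.6, 220.5 and 157.5 TPM (means of PF_L, PF_Z and PF_D).

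Libraries with the same replicate number did not deviate together from their stage means (correlations of -0.0963 to 0.0432 over the tested unigenes). With the replicate number as a block, MIF2 gave 4.15, 8.28 and 4.13, and 8 and 8 family unigenes were called lower in PF_Z and PF_D against PF_L.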
